A study of Mus musculus with 3 samples.

Results

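Annotated retained introns are introns that some transcripts of a gene are known to keep, and here they were examined for contact with Tra2β, an SR-like splicing regulator, in the mouse testis. A retained intron was an intron other than the first of the canonical transcript of a protein-coding gene that lay wholly inside an exon of a transcript of the same gene annotated as retaining an intron, in the GENCODE vM39 annotation of the GRCm39 genome build. There were 6637 such introns in 3494 genes, out of 166077 introns other than the first in 21770 canonical transcripts, a share of 4.0%. The definition uses the annotation alone and no measured value. Bases that code for protein in any transcript were left out, and 6590 retained introns still had at least 30 nt to count.

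RNA contacts of Tra2β had been mapped by iCLIP, in which proteins are fixed by ultraviolet light to the RNA they contact and the end of each cDNA marks the contact. The 3 libraries formed 1 group of biological replicates from testes of wild type adult mice, minced, with mixed cell types, and an anti-Tra2b polyclonal antibody was used for the pull-down. Libraries of input RNA, of a control antibody or of a knockout were not analysed here, and neither was RNA-seq of the same testes, so each comparison was made inside a library. A crosslink below is 1 unique cDNA at 1 nucleotide.

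When an intron is retained, the transcript keeps the intron after the others have been removed. Such transcripts are commonly held in the nucleus, where the intron may be spliced later, or are degraded, and several genes that encode splicing factors limit their own expression in this way. Tra2β binds purine-rich RNA with GAA at its core and is best known for activating exons from within, so introns are not its best known place of action.

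Among the 10 retained introns with the most crosslinks were introns of Rbm25, Arglu1, Ubn2 and Rsrp1. The first and last 20 nt of these 4 introns are shown to identify the splice sites, with the GT and AG that mark the intron ends in capitals. They are given 5′ to 3′ on the strand of the gene.
Rbm25 intron 9, start: GTagtattcttgatttttca
Rbm25 intron 9, end: gtacttttgttggtttctAG
Arglu1 intron 2, start: GTaacgctcggtcgtttgga
Arglu1 intron 2, end: caacatgtcctcccctttAG
Ubn2 intron 13, start: GTaagagtccagcaaatcta
Ubn2 intron 13, end: tataatgctacttatgctAG
Rsrp1 intron 3, start: GTaagtgccttcaggaagct
Rsrp1 intron 3, end: aaaattctcttcctctttAG

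Within each of these introns, the first window of 100 nt that held the most crosslinks over the 3 libraries was read from the GRCm39 genome, and it is shown so that the contacted sequence can be seen. Capitals mark GAA, the core of the Tra2β site. The windows are chr12:83708291-83708390 (+ strand) in Rbm25 intron 9, chr8:8733563-8733662 (- strand) in Arglu1 intron 2, chr6:38464863-38464962 (+) in Ubn2 intron 13 and chr4:134653292-134653391 (+) in Rsrp1 intron 3.
Rbm25 intron 9: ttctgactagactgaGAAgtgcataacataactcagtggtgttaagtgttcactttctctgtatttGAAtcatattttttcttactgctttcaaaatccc
Arglu1 intron 2: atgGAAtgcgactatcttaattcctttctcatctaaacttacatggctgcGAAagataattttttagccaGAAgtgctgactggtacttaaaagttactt
Ubn2 intron 13: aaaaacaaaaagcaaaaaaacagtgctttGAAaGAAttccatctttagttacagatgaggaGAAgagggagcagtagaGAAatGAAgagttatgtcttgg
Rsrp1 intron 3: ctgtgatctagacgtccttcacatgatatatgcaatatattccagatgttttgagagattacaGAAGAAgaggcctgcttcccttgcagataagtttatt
The Ubn2 intron 13 window holds 5 copies of GAA, against 1.64 per 100 nt over the whole intron, and 69% of its bases are purines. The windows of Rbm25 intron 9 and Rsrp1 intron 3 hold 2 copies each, against 1.82 and 1.54 per 100 nt of those introns, and that of Arglu1 intron 2 holds 3. Windows that tied for the most crosslinks numbered 5 in Rbm25, 17 in Arglu1, 43 in Ubn2 and 1 in Rsrp1, and only the first is shown.

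Retained introns were short. Their lengths ran from 1 to 12240 nt with quartiles of 112, 251 and 671 nt, while the median of the other introns was 1315 nt. Nearly all of them, 6571 or 99.0%, lay between coding exons, with 35 in 5′ UTRs and 31 in 3′ UTRs. The last intron of a transcript made up 7.70% of retained introns and 10.9% of the others. Median GC content was 50.9% in retained introns and 44.5% in the other introns, and purine content was similar, 48.1% against 48.8%. AGAA, searched on the strand of the gene, started 6.05 times per kb in retained introns and 7.26 times per kb in the others. A further 17.1% of the bases of retained introns, against 3.05% in the other introns, also belonged to exons of transcripts other than those that retain the intron. A crosslink at such a base cannot be told apart from one to a transcript that holds that exon.

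The libraries held 348033, 619571 and 488719 crosslinks in replicates 1, 2 and 3. Crosslinks were seen in all 3 libraries for 10 of 10 germ cell marker genes, with sums of 1113, 569 and 1879. The same held for 3 of 4 Sertoli cell genes, with sums over the 4 of 30, 61 and 39 and Amh at 0. It also held for 3 of 4 Leydig cell genes, with sums over the 4 of 30, 34 and 39. These Leydig sums include Insl3, at 18, 0 and 22. Replicate 2 held the most crosslinks of the 3 libraries but the lowest germ cell sum, and the reason was not tested. Of 4 genes of other tissues, only Ins2 had crosslinks in all 3 libraries (7, 28 and 3), while Alb and Neurod6 were at 0. Because testis is a mixture, a difference in the number of cells that express a gene and a difference in RNA per cell cannot be told apart.

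Few Tra2β contacts fell in retained introns. The 3 libraries had 1020, 1354 and 1425 crosslinks there, which is 0.293%, 0.219% and 0.292% of each library, over 3441.97 kb. This was 0.296, 0.393 and 0.414 crosslinks per kb. No crosslink was seen in any library for 5229 of the 6590 introns (79.3%), and a single one for 780. With a limit of 3 counts for a value of 0, an intron without crosslinks could still have a level of up to 8.62, 4.84 and 6.14 CPM (counts relative to all crosslinks of a library) in replicates 1, 2 and 3, so an absence of binding could not be detected at this depth. Crosslinks were present in all 3 libraries in 186 retained introns, and 65 had at least 10 in total. The signal was concentrated, since the 10 introns with the most crosslinks held 12.5%, 11.1% and 13.9% of those in retained introns and the top 50 held 30.6%, 28.1% and 31.2%.

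The central question was whether retained introns were contacted more often than the introns spliced out of the same transcripts. For 5531 retained introns the reference was every other intron of the transcript, neither first nor annotated as retained, with a length within 2-fold. For another 801 no such intron existed and all other introns of that kind were taken, while 258 had none and were left out. The 21564 reference introns had a median length of 530 nt and a median GC content of 48.0%. In them AGAA started 6.63 times per kb, and 5.51% of bases belonged to exons of other transcripts. The crosslinks expected in a retained intron were its counted length times the crosslink density of its reference introns. The 6332 retained introns with a reference held 1002, 1312 and 1398 crosslinks in replicates 1, 2 and 3, against 533.5, 879.2 and 752.8 expected. Observed over expected was 1.88 (95% interval 1.72 to 2.06), 1.49 (1.37 to 1.63) and 1.86 (1.72 to 2.01), where the intervals cover counting error only. The mean was 1.74 ± 0.217 (SD, n = 3), or 0.79 ± 0.19 on the log2 scale. All 3 libraries lay above 1 with intervals that did not reach it, and replicate 2 was the lowest. With 3 libraries, the smallest two-sided p of an exact sign-flip test is 0.25, so none is reported. The count of crosslinks depends both on how often Tra2β touched the RNA and on how much of the intron was present as RNA, and these cannot be told apart here.

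Part of this ratio lay in bases shared with exons of other transcripts. Where those bases were left out, the ratio was 1.59, 1.26 and 1.57 in replicates 1, 2 and 3 over 5145 introns (mean log2 0.55). In the 4437 retained introns with no base in such an exon it was 1.44, 1.16 and 1.40 (mean log2 0.40), and in the shared bases alone, of 1801 introns, it was 3.30, 3.33 and 3.94. The last 2 of these breakdowns were chosen after seeing the data. The ratio was thus above 1 in all 3 libraries outside shared bases too, but was smaller there. Whether the shared bases lay in spliced exons or in exons that keep the whole intron was not tested.

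**Figure D1:**
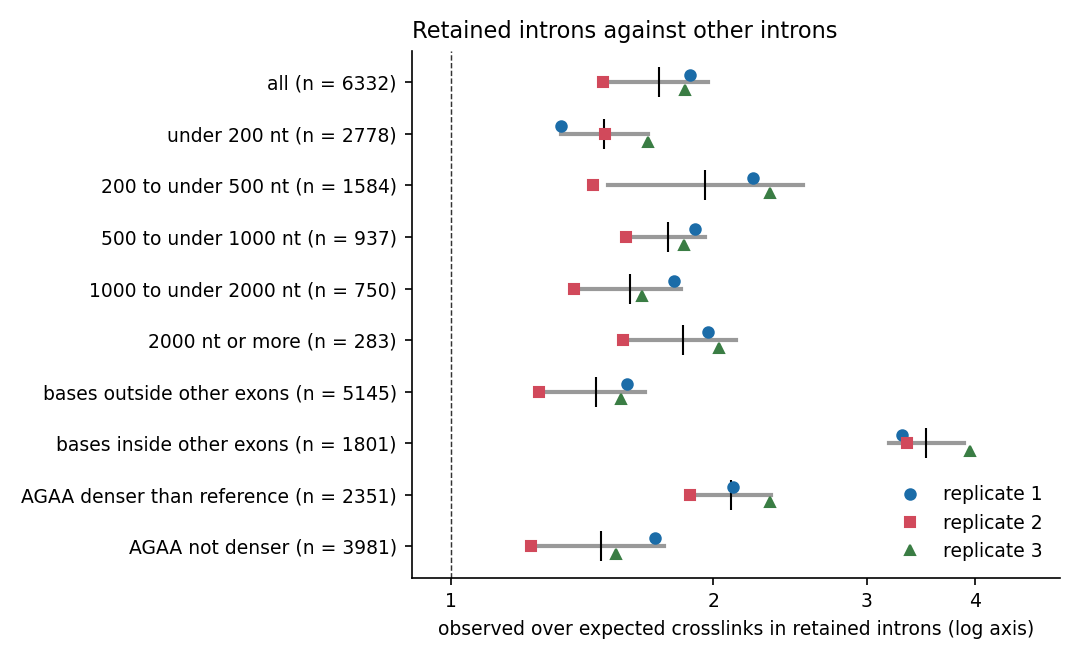
Observed over expected crosslinks in retained introns (log axis) for all introns with a reference and for classes by length, overlap with other exons and AGAA density. Coloured points are the 3 libraries, the vertical tick is their geometric mean and the grey bar is 1 SD on the log2 scale. Every point lies to the right of the dashed line at 1, and bases inside other exons reach 3.30 to 3.94.

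The plot of the ratio by class shows that it did not belong to 1 length class. Retained introns under 200 nt, 2778 in number, had ratios of 1.34, 1.5 and 1.68 in replicates 1, 2 and 3. The 1584 introns of 200 to under 500 nt had 2.22, 1.45 and 2.32, and the 283 introns of 2000 nt or more had 1.97, 1.58 and 2.03. The classes overlapped in their library values, so no order among them can be given. The 389 retained introns that were the last of their transcript had 1.90, 1.17 and 1.3. Retained introns in which AGAA was denser than in their reference, 2351 in number, had ratios of 2.11, 1.88 and 2.33. The 3981 in which it was not denser had 1.71, 1.23 and 1.55, lower in each of the 3 libraries.

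Retained introns were still far less contacted than exons. Summed over retained introns with a reference, density was 0.302, 0.396 and 0.421 crosslinks per kb in replicates 1, 2 and 3. Their 10949 flanking exons had 1.83, 1.96 and 3.47 per kb. Retained introns therefore reached 16.5%, 20.2% and 12.1% of the density of the exons beside them (mean log2 ratio -2.65 ± 0.37, SD, n = 3). Reference introns had 0.160, 0.245 and 0.226 crosslinks per kb and reached 9.14%, 14.4% and 6.39% of the density of their own flanking exons (-3.41 ± 0.59). Retained introns thus lay between other introns and exons, nearer to introns, in all 3 libraries. Without the bases shared with other exons, the mean log2 ratio to flanking exons was -3.02, which moved the value by more than the spread between replicates.

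**Figure D2:**
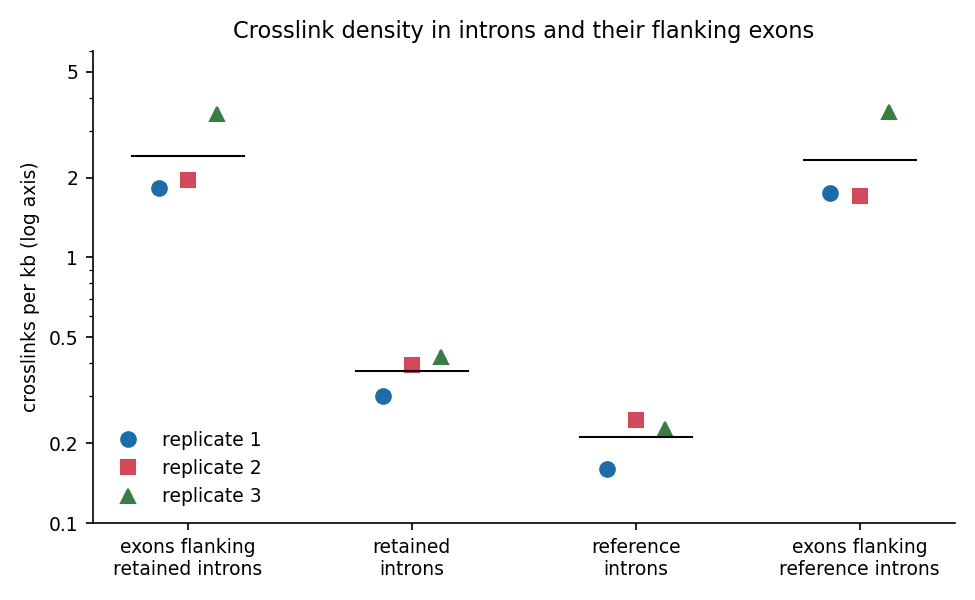
Crosslinks per kb (log axis) in retained introns, in their reference introns and in the exons that flank each of them. Points are the 3 libraries and the line is their mean. Retained introns, at 0.302 to 0.421 per kb, lie above reference introns, at 0.160 to 0.245, and below flanking exons, at 1.70 to 3.54.

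Single introns were then tested one by one. Each intron with at least 20 crosslinks in itself and its reference was set against that reference, for its share of their joint length, by an exact binomial test (two-sided) in each library. The test takes a single crosslink density for an intron and its reference. Its p-values thus cover counting error and not the spread of density between introns of a transcript. The p-values were adjusted by the Benjamini-Hochberg method over all 25733 introns tested, and a call needed adjusted values under 0.05 with 1 direction throughout the 3 libraries. Only 261 retained introns had enough crosslinks. Of these, 4 were called higher (1.53%), against 0.75% of all introns tested. None was called lower, against 0.33% of all introns tested. At an unadjusted p under 0.05 by the same exact test in all 3 libraries, 13 retained introns were higher and 0 lower, beside 545 and 315 of all 25733 introns tested. In replicates 1, 2 and 3 taken singly, 10, 14 and 19 of the 261 were called higher and 0, 0 and 2 lower, beside 472, 1224 and 647 higher and 163, 711 and 258 lower among all 25733. The retained introns tested were short, with a median of 1084 nt against 3428 nt for all introns tested, and a median of 1.40 crosslinks was expected in them, which leaves little room for a call of lower.

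Without regard to a threshold, 51 of the 261 (19.5%) had more crosslinks than expected in all 3 libraries, against 15.4% of all introns tested, and 104 (39.8%) had fewer, against 36.2%. Short introns often hold no crosslink at all, so these shares are better read by length. Of 73 retained introns of 1000 to under 2000 nt, 21 were above expectation in all 3 libraries (28.8%, against 9.69% of all introns of that length). Of 64 retained introns of 2000 nt or more, 19 were (29.7%, against 18.5%), and of 33 introns of 500 to under 1000 nt, 8 were (24.2%, against 7.21%). Below 200 nt, 1 of 59 was (1.69%, against 0.376%), and from 200 to under 500 nt, 2 of 32 were (6.25%, against 2.11%). From the shortest to the longest class, 83.1%, 59.4%, 27.3%, 20.5% and 18.8% of retained introns were below expectation in all 3 libraries. The matching shares of all introns by length are not given here. The 4 called introns fell into the longer lengths, 2 of 73 at 1000 to under 2000 nt, against 0.243% of all introns, and 2 of 64 at 2000 nt or more, against 0.977%. None of the 33 from 500 to under 1000 nt was called higher, against 0.141%.

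**Figure D3:**
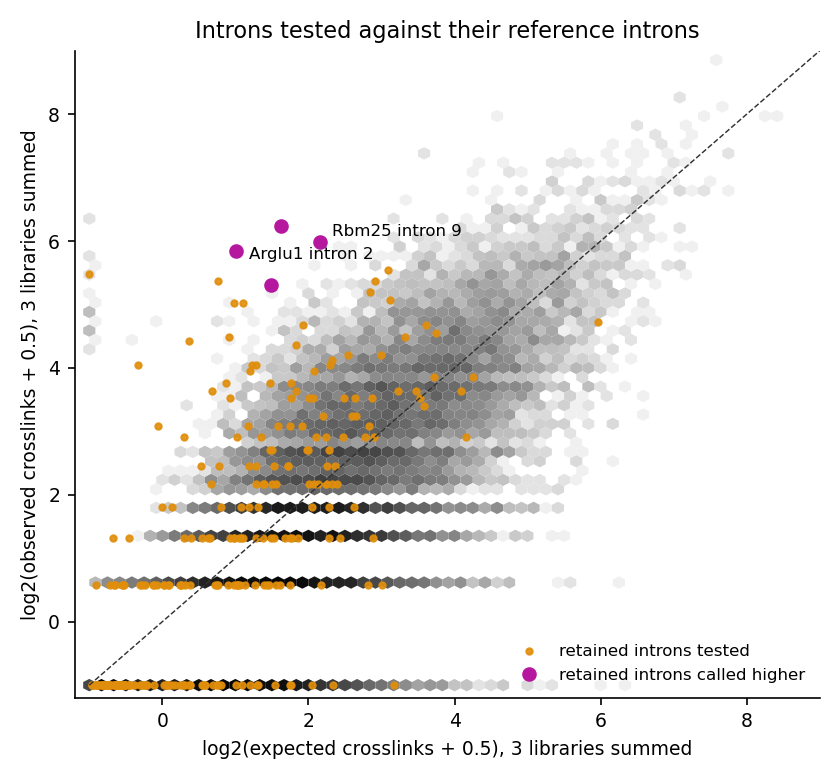
Observed against expected crosslinks, as log2 of the sum over 3 libraries plus 0.5, for introns with at least 20 crosslinks in intron and reference. Grey hexagons are introns not annotated as retained (darker for more introns, log scale), orange points the 261 retained introns tested and purple points the 4 called higher. The dashed line is equality, and the purple points lie far above it.

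Rbm25 encodes a splicing factor with arginine- and glutamate-rich repeats. Rbm25 intron 9 (chr12:83707453-83710752, + strand, 3300 nt with 3285 counted, of 18 introns) had 17, 26 and 20 crosslinks, or 5.18, 7.91 and 6.09 per kb. Its 8 reference introns had 4, 9 and 12 in 20760 nt, which gave a log2 fold of 4.62, 4.14 and 3.37 (mean 4.04 ± 0.63, SD, n = 3; largest adjusted p = 5.15e-08, exact binomial test). All 3 libraries were far above the reference. However, only 528 nt of the intron lay outside exons of other transcripts, with 4, 3 and 4 crosslinks, and without the shared bases the intron no longer entered the test. Rbm25 intron 6, not annotated as retained and over 2-fold longer, had 28, 17 and 15 crosslinks in 7885 nt, or 3.55, 2.16 and 1.90 per kb, and the first intron had 28, 37 and 37 in 10169 nt. Crosslinks in this gene were therefore not restricted to the retained intron, and with all other introns except the first as reference, whatever their length, the mean log2 fold of intron 9 was 2.74.

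Arglu1 encodes an arginine- and glutamate-rich protein that acts in splicing and as a coactivator of nuclear receptors. Arglu1 intron 2 (chr8:8731468-8733747, - strand, 2280 nt with 2115 counted, of 3 introns) had 15, 6 and 36 crosslinks, or 7.09, 2.84 and 17.0 per kb. Its only reference, intron 3, was not matched in length and had 3, 2 and 5 in 13967 nt. The log2 fold was 4.87, 4.10 and 5.45 (mean 4.81 ± 0.68, SD, n = 3; largest adjusted p = 0.00295, exact binomial test). The libraries varied widely in density, with replicate 2 low and replicate 3 high, yet the lowest was above each value in intron 1, of 0.666, 1.67 and 1.17 per kb. Outside exons of other transcripts, 684 nt held 8, 2 and 17 crosslinks, with a mean log2 fold of 5.34, and the intron was no longer called. The flanking exons had 12, 29 and 22 crosslinks in 310 nt.

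**Figure D4:**
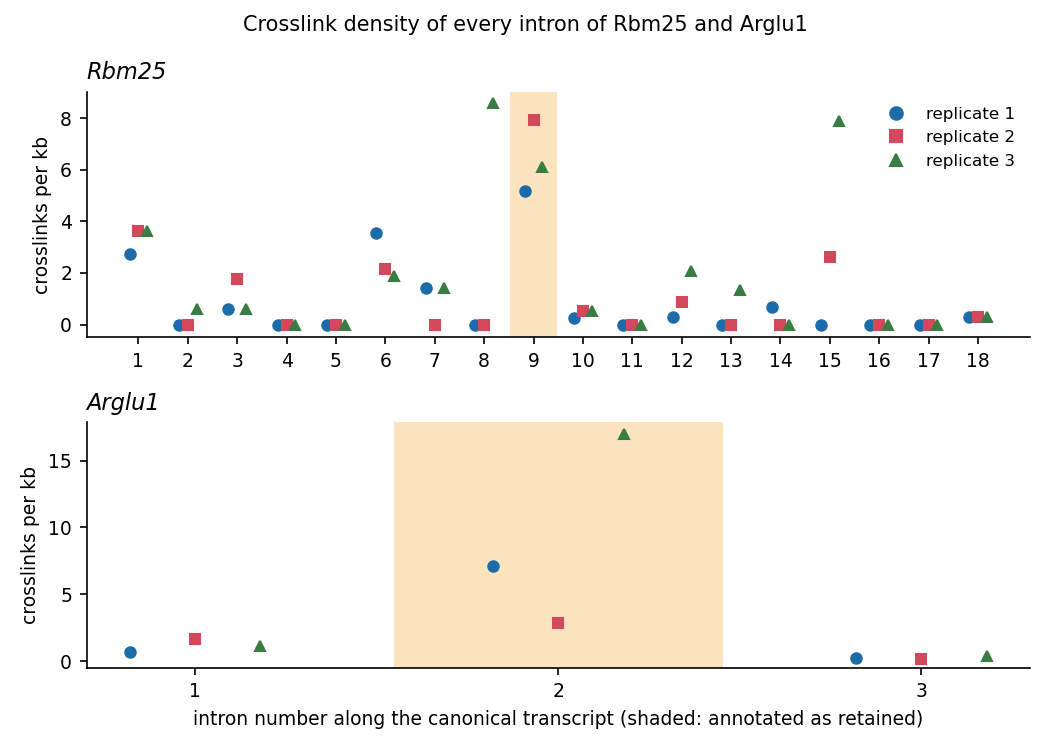
Crosslinks per kb in each intron of Rbm25 and Arglu1, numbered along the canonical transcript, for the 3 libraries. Shaded introns are annotated as retained. Rbm25 intron 9 stands at 5.18 to 7.91 per kb and Arglu1 intron 2 at 2.84 to 17.0, while Rbm25 introns 8 and 15, short introns not annotated as retained, reach 8.58 and 7.89 in replicate 3 from few crosslinks.

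Crosslinks in these introns were spread along the intron. In Rbm25 intron 9, 63 crosslinks fell on 62 positions from 63 to 3300 nt past the 5′ splice site with a median of 1408 nt, and the densest window held only 0, 4 and 2 in replicates 1, 2 and 3. In Arglu1 intron 2, 57 crosslinks fell on 48 positions, 2 of which were hit in at least 2 libraries, and the window, 86 to 185 nt from the 5′ splice site, held 4, 0 and 7. In Ubn2 intron 13, 46 crosslinks fell on 44 positions and the printed window held 1, 4 and 1. In Rsrp1 intron 3, the shortest of the 4, 41 crosslinks fell on 37 positions and the printed window held 1, 6 and 5 of them, 29.3% of the total. The windows were chosen for their counts, so these values are a description. No position was hit in all 3 libraries in any of the 4 introns.

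**Figure D5:**
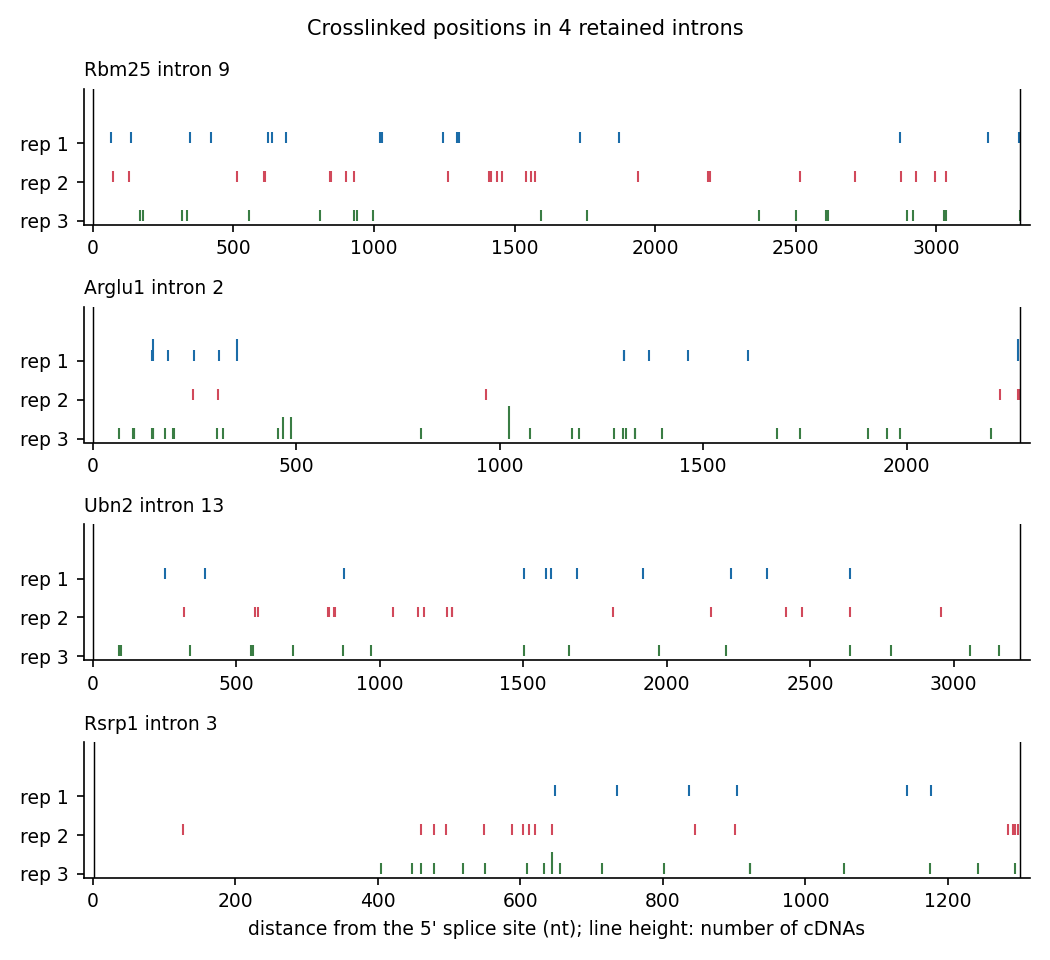
Crosslinked positions in Rbm25 intron 9, Arglu1 intron 2, Ubn2 intron 13 and Rsrp1 intron 3, by distance from the 5′ splice site in nt, with 1 row for each library. Line height is the number of cDNAs at a position and black lines mark the intron ends. Lines are spread over each intron, at 62 positions for 63 crosslinks in Rbm25 intron 9.

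Of the 10 retained introns with the most crosslinks, 6 were not called. Among these, Ubn2 encodes a ubinuclein that takes part in histone deposition, and Ubn2 intron 13 had 11, 19 and 16 crosslinks against 13, 8 and 16 in 14655 nt of reference. Its mean log2 fold was 2.53 ± 0.77 (SD, n = 3; largest adjusted p = 0.0556, exact binomial test). It missed the threshold in replicate 1 alone. Rsrp1, which encodes an arginine- and serine-rich protein, had 6, 16 and 19 crosslinks in intron 3 against 0, 0 and 1 in 810 nt of reference (largest adjusted p = 0.433, exact binomial test). Here the reference held too few crosslinks for a narrow comparison.

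Another 3 varied between libraries. Rbm5 intron 6, in the gene of a splicing regulator, had 6, 12 and 23 crosslinks against 2, 13 and 7 in 8736 nt (mean log2 fold 2.62 ± 0.95; largest adjusted p = 0.104, exact binomial test). Cep63 intron 13, in the gene of a centrosomal protein, had 16, 8 and 12 against 9, 17 and 10 in 20318 nt (2.43 ± 0.94; 0.30, exact test). Cfap65 intron 11, in a gene needed for the sperm flagellum, had 11, 6 and 16 against 8, 26 and 15 in 10332 nt (2.08 ± 1.33; 0.984, exact test). In both Cep63 and Cfap65 replicate 2 had the fewest crosslinks in the intron and the most in the reference. The Rbm5, Rsrp1, Cep63 and Cfap65 introns had no base outside exons of other transcripts.

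The 6 gene lists were read by their counts. With 0.75% of all introns tested called higher and 0.33% lower, a list with few introns tested would seldom hold a call, so a count of 0 in the lists below says little about them. Over 39 retained introns in 19 genes of hnRNPs and other splicing factors, which bind pre-mRNA or build the spliceosome, observed over expected was 2.10, 2.10 and 3.15 in replicates 1, 2 and 3, and 0 of the 6 tested were called in either direction. The median log2 fold of the 6 was 2.00, beside 1.59 for all retained introns tested and 0.21 for all introns tested, where the added 0.5 raises the fold of short introns.

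SR proteins, their relatives and kinases are the family to which Tra2β belongs, and many of its genes carry regulated introns or exons. Their 29 retained introns in 14 genes had ratios of 3.80, 0.946 and 2.38, with replicate 2 below 1, and none of the 5 tested was called in either direction (median log2 fold 1.42). Srsf5 intron 5 had 4, 5 and 8 crosslinks, Srsf7 intron 3 had 3, 4 and 6, and Srrm1 intron 3, in the gene of a splicing coactivator, had 5, 3 and 5 against 2, 7 and 10 in 12059 nt of reference. The first 2 were below the minimum for a test and the third did not pass in all libraries (largest of 3 adjusted p-values 0.571, exact binomial test). The Srsf5 and Srsf7 introns lay wholly within exons of other transcripts, and Srrm1 intron 3 had no crosslink in its 503 nt outside such exons.

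Genes known for a detained or regulated retained intron had 24 retained introns in 10 genes and ratios of 6.6, 1.44 and 3.93. None of the 4 tested was called in either direction (median log2 fold 1.81), and all 3 libraries lay above 1, with replicate 2 much the lowest. The crosslinks over the retained introns of a gene were 18 in Srsf5, 13 each in Srsf7 and Eif4a2 and 10 in Clk4. Clk1, a kinase of SR proteins whose introns are known to be detained, and Mat2a, an enzyme that makes S-adenosylmethionine, had 2 each, and Nxf1, the mRNA export receptor, had none. Eif4a2, a translation initiation helicase, had 2, 11 and 0, nearly all from replicate 2. Several of these introns were short, with 79 nt counted in Nxf1 and 247 nt in Mat2a, so their counts cannot be compared between genes. Ogt and Hnrnph1 had no intron that met the definition.

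Genes of testis biology were read in the same way. Cilium and flagellum genes, which build the sperm tail, had 52 retained introns in 27 genes with ratios of 1.66, 1.1 and 2.20, and 0 of 11 tested were called in either direction (median log2 fold 0.47). Cfap65 intron 11, wholly within exons of other transcripts, held 11, 6 and 16 of the list's 29, 35 and 40 crosslinks. The ratios without it are not given here. Odf2 intron 13, in the gene of a sperm tail fibre protein, had 0, 5 and 2 crosslinks against 6, 23 and 6 in 4619 nt of reference, fewer per kb in all 3 libraries but not called. Cfap20 intron 2 had 3, 3 and 2. Meiosis genes had 14 retained introns in 5 genes with 5 crosslinks in each library and ratios of 1.22, 3.48 and 2.00. Among them, Stag3 intron 10, in the gene of a meiotic cohesin subunit, had 0, 3 and 2 crosslinks. In Spo11, which makes the DNA breaks that start meiotic recombination, intron 4 had 2, 0 and 1 and intron 5 had 0, 1 and 1. No retained intron of a meiosis gene reached the minimum for a test.

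Ribosomal protein genes, which are highly expressed and have short introns, had 76 retained introns in 38 genes. These held 3, 18 and 18 crosslinks over those with a reference, with ratios of 2.42, 3.09 and 1.08, and none was deep enough to test. Rpl27a intron 3 had 1, 2 and 3 crosslinks and Rps24 intron 4 had 0, 2 and 4. Neither intron had a base outside exons of other transcripts.

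The sequence around crosslinks in retained introns was compared with the introns' own bases. AGAA began within 30 nt on either side of 34.0%, 44.3% and 34.9% of crosslinks in replicates 1, 2 and 3. If the crosslinks of each intron lay evenly on its bases, 31.3%, 32.6% and 32.0% would be expected. The ratio was 1.09, 1.36 and 1.09 (mean log2 0.23 ± 0.19, SD, n = 3), above 1 in all 3 libraries and largest in replicate 2. In replicates 1, 2 and 3 the 95% intervals of the observed share were 31.1% to 37.0%, 41.6% to 47.0% and 32.5% to 37.5%. That of replicate 1 included its expected share, and that of replicate 3 lay only just above its own. An excess well beyond counting error was thus seen in replicate 2 alone. In reference introns the ratio was 1.14, 1.36 and 1.09, so the library values of retained and reference introns overlapped. With GAA in place of AGAA, the ratio in retained introns was 1.05, 1.13 and 1.00.

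Position along the intron differed in detail from the reference. In the 3811 retained introns of at least 200 nt, density in the last 50 nt, which hold the polypyrimidine tract and 3′ splice site, was 0.974, 1.41 and 1.04 times that of the middle in replicates 1, 2 and 3. In 15355 reference introns of that length it was 1.51, 1.47 and 1.85 times. Relative to the middle, the value was lower in retained introns in each of the 3 libraries, with replicate 2 nearly equal. The density itself in the last 50 nt was higher in retained introns, 0.302, 0.553 and 0.442 crosslinks per kb against 0.241, 0.357 and 0.412, and so was the density of their middle. The first 50 nt had 0.864, 0.800 and 0.779 times the middle in retained introns and 0.849, 0.833 and 0.952 times in reference introns. Almost all introns of both kinds began with GT and ended with AG, 98.7% of retained and 99.1% of reference introns.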

How the data were processed

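Tra2β iCLIP was analysed in 3 libraries of 1 group, wild type adult mouse testis. The authors had used the iMAPS pipeline and deposited, for each crosslinked nucleotide and strand, the count of unique cDNAs that ended there. They were not normalised or pooled. The submitters' processing notes name Trim Galore 0.6.7, Bowtie 1.3.1, STAR 2.7.9a, UMI-tools 1.1.2 and the build mm39. How reads that map to several places were treated is not given in the sources used here, so introns with repeats or near-identical copies elsewhere could be under- or overcounted. All 49 sequence names in the files fitted GRCm39.

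Introns, transcripts and coding bases were taken from GENCODE vM39. Counting, the exact binomial tests and the Benjamini-Hochberg adjustment were run in Python 3.11.15 with numpy 2.4.6 and scipy 1.17.1, and figures were drawn with matplotlib 3.10.9. The scripts were tested on simulated data. Introns under 30 nt after removal of coding bases were left out. Random barcodes had been used, so counts are close to molecules, and intervals and p-values cover counting error only. The members, lists and tests were chosen with earlier results of these data known.

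Introns named in the text were those called higher (up to 20), the 10 with the most crosslinks and, for each gene list, the 3 with the most crosslinks; members of the list of known detained introns and introns of the called genes are given besides. Results of some genes, called introns among them, are not reported here, and list values leave such genes out where they held a large share of a list's crosslinks. The lists were SR proteins, hnRNPs and other splicing factors, genes with a known detained intron, and cilium, meiosis and ribosomal protein genes. Alternatives varied the reference introns, intron ends, shared exon bases, minimum counts, counting of positions, the motif and its window, and left out each library in turn.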

Additional observations from a re-analysis of the deposited data

How the results depend on the processing

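The log2 ratio of retained over reference introns, 0.79, stayed above 0 under each alternative. It was 0.66 with all other introns as reference, 0.62 without the 10 introns with the most crosslinks, 0.55 without bases in other exons and 0.40 in introns with no such base, a choice added after seeing the data, and 0.74 to 0.90 when 1 library was left out. The count of retained introns called higher, 4, was 2 of 198 tested without bases in other exons, beside 0.683% of all introns tested. There Rbm25 intron 9 and Arglu1 intron 2 were lost and the other 2 were kept. It was 7 of 172 without replicate 1, 10 of 131 without replicate 2 and 5 of 136 without replicate 3. The shares of all introns tested were 1.71%, 1.77% and 1.72%, and the 4 introns were kept each time. Requiring calls in fewer libraries by itself allows more of them. The count was 5 of 234 with 50 nt left out at each intron end, beside 0.800% of all introns tested, and Leng8 intron 15 came in. With at least 50 crosslinks it was 4 of 65, beside 2.08% of all introns tested, but Ubn2 intron 13 came in and another was too shallow to test. No retained intron was called lower under any alternative. The log2 ratio to flanking exons, -2.65, was -3.02 without bases in other exons and -2.82 to -2.45 with 1 library left out. The log2 ratio for AGAA, 0.23, ranged from 0.12 to 0.29 with 1 library left out and was lowest, 0.08, with GAA. No paired analysis was possible because the labels gave 1 group. Depth limits the tests, since 79.3% of retained introns held no crosslink.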

Other observations

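Below the 10 retained introns with the most crosslinks, several more were seen in all 3 libraries. They were chosen after their values were seen and are given as values only. Safb encodes a scaffold attachment factor that binds RNA, and Safb intron 6 had 5, 23 and 4 crosslinks in 828 nt while intron 7 had 8, 4 and 3 in 402 nt. Leng8 intron 15 had 13, 8 and 11 in 1292 nt. Sf3b1, the gene of a core protein of the U2 snRNP, had 3, 6 and 7 in 1552 nt of intron 4. Akap8l intron 9 had 1, 11 and 8 in 1164 nt. Ythdc1, a nuclear reader of m6A, had 8, 7 and 3 in 2319 nt of intron 11, and Ccnl2, a cyclin linked to splicing, had 4, 6 and 6 in 2109 nt of intron 5. For the introns named so far in this paragraph, the fold against the reference is not given. Acrv1, a gene of the sperm acrosome, had 6, 14 and 6 crosslinks in 1887 nt of intron 2 and a mean log2 fold of -1.26 against its reference. None of these passed the test in all 3 libraries, except Leng8 intron 15 when 50 nt were left out at each intron end.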
